A study of Mus musculus with 24 samples.

Results

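Sex differences in a mouse model of colorectal cancer raise the question of which hormone receptors the colon carries and whether their transcripts move with the removal of the ovaries, with sex or with diet. The genes described here are 9 members of the steroid hormone response. They are the estrogen receptors Esr1, Esr2 and Gper1, the progesterone receptor Pgr, the glucocorticoid receptor Nr3c1, the mineralocorticoid receptor Nr3c2, the estrogen-induced gene Greb1, and the enzymes Hsd17b2 and Hsd11b2. They were chosen by name, as every array probe whose accession maps to 1 of these symbols, which gave 19 of the 56605 probes on the array, for 9 of the 22911 genes that could be named. Esr1 had 6 probes, Esr2, Pgr, Greb1, Nr3c1 and Nr3c2 had 2 each, and Gper1, Hsd17b2 and Hsd11b2 had 1 each.

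Steroid hormones cross the cell membrane and bind receptors that act as transcription factors. ESR1 and ESR2 bind estradiol and then DNA, whereas GPER1 is a membrane receptor coupled to G proteins. PGR is a classical target of ESR1 in the uterus and breast, and GREB1 is a cofactor of ESR1 that estrogen itself induces. In the colon, ESR2 is the receptor usually named in the epithelium, and NR3C2 drives sodium uptake by the surface cells of the distal colon under aldosterone. HSD17B2 oxidizes estradiol to the weaker estrone and testosterone to androstenedione. HSD11B2 oxidizes active glucocorticoids and so keeps them off NR3C2.

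RNA of colon tissue from 24 C57BL/6J mice, 4 in each of 6 groups, was hybridized to 1-color Agilent arrays. The groups were males (M) and intact females (F), which had sham surgery, and ovariectomized females (F(OVX)), each on a diet with 10 (LFD) or 45 (HFD) kcal% of fat for 14 weeks, the low-fat and high-fat diets. Every mouse was 7 weeks old at purchase, was given the carcinogen azoxymethane (10 mg/kg) and then dextran sulfate sodium, an agent that inflames the colon, at 1.5% in 3 cycles, and was killed 75 days after azoxymethane. No untreated mice were among them, so the model holds only inflamed, carcinogen-treated colon, and tumor and non-tumor tissue are not told apart by the labels. The methods give 5 animals per group for the arrays, whereas the labels give 4.

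The share of probes that were well above background ranged from 40.5% to 61.9% over the arrays, and no spot was saturated. The lowest shares were those of F(OVX) + LFD replicate 3 (40.5%) and F + HFD replicate 2 (43.6%). Their 75th percentiles of processed signal were 125 and 157, against 313 to 669 on the other arrays. The 3 slides carried M, F and F(OVX), with LFD in the upper row of each and HFD in the lower, so M against F, and F(OVX) against F, cannot be told apart from the slide, nor diet from the row. The methods give the tissue as distal colon. On 22 arrays Hoxb13, a marker of the most distal colon, read from 12.58 to 14.79, but it read 2.18 on M + LFD replicate 1 and 5.04 on M + LFD replicate 2. These 2 arrays go against the distal position of the rest by Hoxb13, and results that rest on them are given with and without them. The mean of 8 distal Hox genes, used below as the distal Hox covariate, also varied among the other arrays. It read 7.69 and 7.43 on F(OVX) + LFD replicates 2 and 4, against 5.51 and 5.52 on replicates 1 and 3. On F(OVX) + HFD it ran from 5.33 to 5.85, so the F(OVX) diet groups were uneven in these genes. It ran from 7.11 to 8.28 on M + HFD replicates 1 and 4, F + LFD replicate 3 and F + HFD replicate 3. F + LFD replicate 3 stood apart by Krt14, a keratin of squamous epithelium, at 14.93 against at most 11.22 elsewhere. In bulk tissue, fewer cells of a type and less RNA per cell cannot be told apart.

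The promoters of 2 genes are shown because of the results below, that of Greb1, the estrogen-induced member, and that of Nr3c2. Probe 1 of Nr3c2 was the only tested receptor probe whose values did not overlap between the diets, in intact females alone. Each promoter is a window of 300 bases around a start site in RefSeq, assembly GRCm38.p6, written 5′ to 3′ on the gene's own strand. Capitals mark the repeat unit of the estrogen response element, GGTCA or its reverse complement TGACC.

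Greb1 promoter, chr12:16800837-16801136, minus strand: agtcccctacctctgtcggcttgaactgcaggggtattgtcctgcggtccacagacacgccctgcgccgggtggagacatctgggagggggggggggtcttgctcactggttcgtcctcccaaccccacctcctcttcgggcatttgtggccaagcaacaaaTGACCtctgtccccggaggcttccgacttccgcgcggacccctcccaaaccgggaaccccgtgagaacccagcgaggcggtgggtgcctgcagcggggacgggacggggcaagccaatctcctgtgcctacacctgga

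Nr3c2 promoter, chr8:76902080-76902379, plus strand: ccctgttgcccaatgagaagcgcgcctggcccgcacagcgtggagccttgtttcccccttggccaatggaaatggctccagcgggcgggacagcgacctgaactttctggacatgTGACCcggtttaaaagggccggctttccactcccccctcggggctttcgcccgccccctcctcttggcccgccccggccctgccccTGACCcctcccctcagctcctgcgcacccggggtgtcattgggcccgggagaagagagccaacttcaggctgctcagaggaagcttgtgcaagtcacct

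The Greb1 window shown holds 1 such unit and the Nr3c2 window holds 2. Another Greb1 window, chr12:16757190-16757489, is not shown and holds 2. The unit stands in 40.5% of all 32851 promoter windows searched on both strands, so its presence sets neither gene apart. The full element GGTCANNNTGACC was found in 23 of these windows (0.0700%) and in none of the 8 windows of Gper1, Nr3c2, Pgr, Esr1, Greb1 and Esr2. The glucocorticoid element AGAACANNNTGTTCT was found in 3 windows (0.00913%), none of them among these 8. Windows of Nr3c1, Hsd17b2 and Hsd11b2 were not used here. A match is a run of letters and not a site of binding, and its absence concerns these 300 bases alone.

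The probes separated first by whether they were seen at all. Values are log2 of the processed signal after quantile normalization over the 24 arrays, and a level is not compared between probes, because each probe has its own brightness. Pgr was not detected. Its probes read between 2.01 and 2.89 and between 2.04 and 2.57 and were well above background on 0 of 24 arrays, in intact females as in the other groups. Gper1 was well above background on 21 arrays, and Hsd17b2, Hsd11b2 and the 2 probes each of Nr3c1 and Nr3c2 were so on all 24.

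Probes of the same estrogen receptor did not report alike. Esr1 probe 1 was well above background on 24 arrays and probe 2 on 23, and they moved together over the arrays (r = 0.81 over 24 arrays, given as a description). Esr1 probe 3 was seen on 9 arrays, probe 4 on 1 array and probes 5 and 6 on none. Probe 5 is assigned to the same transcript as probe 1, and probe 6 to the same one as probe 2. Esr2 probe 1 was seen on all 24 arrays, with a median of 10.65. Esr2 probe 2, assigned to the same transcript, was seen on 3 arrays, with a median of 3.15. The Esr2 level thus rests on 1 of its 2 probes, and the position of either in the transcript is not known here. Greb1 probe 1 was seen on 24 arrays and probe 2, assigned to another transcript, on none.

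**Figure D1:**
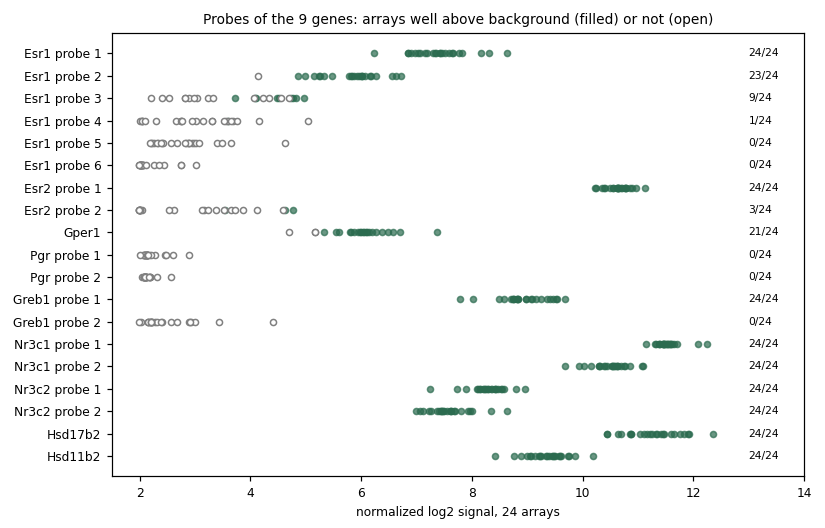
Normalized log2 signal (x axis) of the 19 probes of the 9 genes (y axis) on 24 arrays, 1 point per array, filled where the probe was well above background and open where it was not. The count at the right gives the arrays on which each probe was well above background, from 24 for Esr2 probe 1 to 0 for both Pgr probes.

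The tests took a probe if all 4 arrays of any group compared showed it well above background, which 11 probes of 8 genes met in every comparison. The other 8 probes, both of Pgr among them, were not tested. Differential expression was called from limma where the unadjusted p was under 0.05 and the change was 1.5-fold or more. Adjusted p-values are those of Benjamini and Hochberg over every probe tested. No member probe had an adjusted p under 0.05 in any of the 9 comparisons, a level that 2.23% of all probes passed between M and F and 0 probes in the others. The labels number the samples of a group without naming animals, so p-values measure the spread between these samples.

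Removal of the ovaries was the most direct test of estrogen dependence in this design, and no member passed the thresholds. Of the 11 probes, 0 were differentially expressed between F(OVX) and F with both diets together, against 2.24% of all 28300 probes tested (1.85% lower and 0.389% higher in F(OVX)). At an unadjusted p under 0.05 alone the count was also 0, in limma and in the exact permutation tests. Esr1 probe 1 had means of 7.58 ± 0.58 (SD, n = 4) in F + LFD and 7.49 ± 0.84 in F(OVX) + LFD, and of 7.23 ± 0.25 in F + HFD and 7.32 ± 0.25 in F(OVX) + HFD. The F(OVX) minus F difference was 0.00 on the log2 scale, with a 95% interval from -0.52 to 0.52. For Esr1 probe 2 the difference was -0.27 (-0.79 to 0.25).

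Esr2 probe 1 had 1 of the narrower intervals, with a difference of -0.08 (-0.35 to 0.18). Its 24 values lay between 10.23 and 11.13, and the 6 group means lay between 10.54 in F(OVX) + LFD and 10.78 in M + HFD, with SDs of 0.16 to 0.31. Gper1 differed by 0.09 (-0.37 to 0.55). The intervals of Esr1 probe 1, Esr2 probe 1 and Gper1 lay within 1.5-fold in either direction, and that of Esr1 probe 2 passed it on the lower side.

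Greb1, the gene that estrogen induces in ESR1-positive tissue, covered the same range with and without ovaries. Probe 1 read 9.25, 9.10, 7.79 and 8.74 in F + LFD and 9.52, 8.81, 8.59 and 8.99 in F + HFD. In F(OVX) + LFD it read 8.74, 8.83, 8.82 and 8.01, and in F(OVX) + HFD 8.71, 9.41, 9.35 and 9.07. The values of the 4 groups overlapped throughout, and the lowest value was that of the F + LFD array with squamous markers. The difference with both diets together was 0.02 (SE 0.21, 95% interval -0.43 to 0.47, adjusted p = 0.992 in limma).

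Nr3c1 probe 1 differed by -0.05 (-0.21 to 0.12) and probe 2 by -0.05 (-0.32 to 0.23) between F(OVX) and F. Nr3c2 differed by -0.08 (-0.34 to 0.17) on probe 1 and by -0.04 (-0.45 to 0.38) on probe 2. The largest difference among the members was that of Hsd11b2, at 0.30 (-0.13 to 0.72, adjusted p = 0.779 in limma), followed by Esr1 probe 2 and by Hsd17b2 at 0.21 (-0.18 to 0.60). Smooth muscle markers differed in the same comparison, with 4 of 7 lower in F(OVX), and 3 of 4 neuron markers were lower. Their part in the values of the members was not tested.

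**Figure D2:**
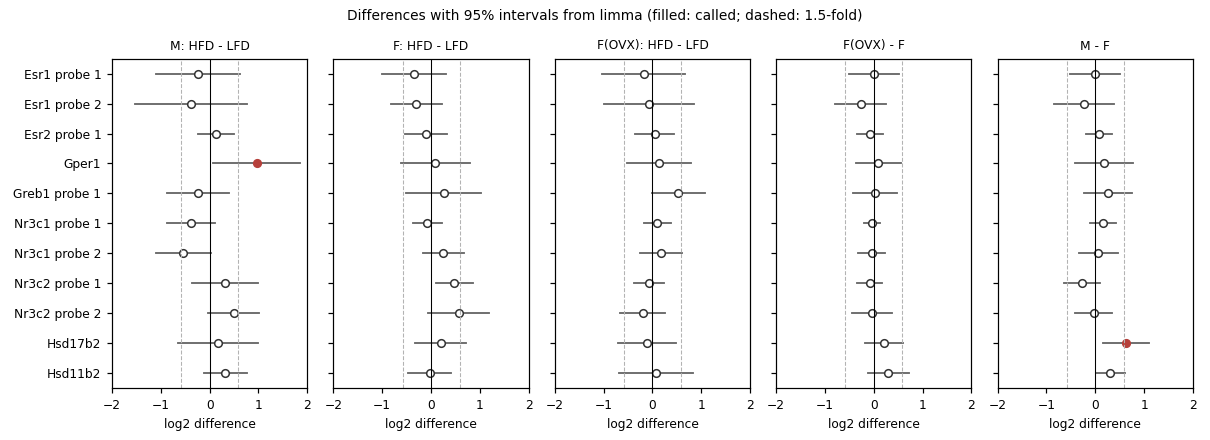
Log2 differences (x axes) of the 11 tested probes (y axis) in 5 comparisons, with 95% intervals from limma. Filled points mark probes that were differentially expressed, Gper1 in M and Hsd17b2 in M against F, dashed lines mark 1.5-fold, and every interval of F(OVX) against F crosses 0.

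HFD was compared with LFD within males, within intact females and within ovariectomized females. Of the 11 probes, 1 was differentially expressed in males (background 4.23% of 26118 probes), 0 in intact females (1.34% of 28234) and 0 in F(OVX) (2.11% of 24434). With 1 array left out, the 1104 probes called in males ranged from 756 to 1821 (without M + LFD replicate 4). The 378 in intact females ranged from 194 to 985, and F + LFD replicates 2, 3 and 4 and F + HFD replicates 2, 3 and 4 each moved them by over 1.5 times. The 516 in F(OVX) ranged from 256 to 838, and F(OVX) + LFD replicate 1 and F(OVX) + HFD replicates 1 and 2 did so. With the 3 groups averaged the count was again 0, against 0.713% of all probes. At an unadjusted p under 0.05 alone, limma gave 1 probe in males (Gper1), 1 in intact females (Nr3c2 probe 1) and 0 in F(OVX) and in the average. Greb1 probe 1 came nearest in F(OVX), where HFD exceeded LFD by 0.53 (SE 0.24, exact permutation p = 0.114), and it passed the thresholds without F(OVX) + LFD replicate 2 (0.61) or 3 (0.60) or F(OVX) + HFD replicate 1 (0.67).

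Gper1, the membrane estrogen receptor, had a higher mean in M + HFD than in M + LFD. It met the detection rule in males through M + HFD alone, with 4 arrays well above background against 3 in M + LFD, so its passing the filter is not independent of this difference. It read 5.55, 5.87, 4.70 and 6.20 in M + LFD, where the value of replicate 3 was not well above background, and 7.36, 6.70, 6.10 and 5.99 in M + HFD. Of the 4 HFD values, 2 lay below the highest LFD value, so the groups overlapped. The difference was 0.96 on the log2 scale (SE 0.39, 95% interval 0.07 to 1.85, adjusted p = 0.806 in limma), a 1.94-fold change, and the exact permutation test gave p = 0.0857 (two-sided, smallest possible 0.0286). Left out in turn, M + LFD replicates 1 (0.95) and 3 (0.66) and M + HFD replicates 1 (0.68) and 2 (0.91) each ended the call. Without M + LFD replicates 1 and 2 together the difference was 1.09, not past the thresholds. The call was also lost with normexp background correction (0.49), with no filter, with the methods' t-test and with the distal Hox covariate (0.60).

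In intact females Gper1 differed by 0.09 (-0.61 to 0.80) between the diets and in F(OVX) by 0.13 (-0.53 to 0.78). The male diet effect exceeded that of intact females by 0.87 (95% interval -0.20 to 1.94) and that of F(OVX) by 0.83 (-0.24 to 1.90). A diet effect on Gper1 particular to males was therefore not shown. Gper1 was close to background here, with 3 detected arrays in each of M + LFD, F + HFD and F(OVX) + LFD.

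Nr3c2, the aldosterone receptor, was the member that the diets separated in intact females, on probe 1 and not on probe 2. Probe 1 read 8.19, 8.41, 8.15 and 7.90 in F + LFD and 8.59, 8.97, 8.53 and 8.48 in F + HFD. All 4 HFD values lay above all 4 LFD values, which 1.34% of all probes tested showed in that direction. The difference was 0.48 (SE 0.17, 95% interval 0.10 to 0.85, adjusted p = 0.988 in limma), below the fold threshold, with an exact permutation p of 0.0286, the smallest that 4 against 4 allows. Both the interval and the permutation took the arrays as unpaired, whereas replicate numbers paired the F arrays, as described under processing. Probe 2 read 7.45, 7.55, 7.26 and 7.07 in F + LFD and 7.61, 8.64, 7.97 and 7.36 in F + HFD, with an overlap at the lowest HFD value. Its difference was 0.56 (-0.05 to 1.18, exact permutation p = 0.114), and 0.74, past the thresholds, without F + HFD replicate 4. F + HFD replicate 2, an array of low signal, held the highest F + HFD value on both probes.

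After ovariectomy the diets did not separate Nr3c2. Probe 1 read 8.44, 8.55, 8.29 and 8.15 in F(OVX) + LFD and 8.35, 8.25, 8.23 and 8.30 in F(OVX) + HFD, a difference of -0.08 (-0.39 to 0.23). Every F + HFD value lay above every F(OVX) + HFD value (exact permutation p = 0.0286), as did 2.11% of all 25203 probes in that direction. Every F + HFD value also lay above every M + HFD value, which ran from 8.09 to 8.42 (exact permutation p = 0.0286), as did 3.84% of all 25988 probes. Of the 11 member probes, no other was lower in F(OVX) + HFD or M + HFD than in F + HFD without overlap. Nr3c2 probe 2 overlapped in both comparisons. It differed by -0.42 for F(OVX) + HFD less F + HFD (exact permutation p = 0.257). For M + HFD less F + HFD it differed by -0.07 (exact permutation p = 0.886).

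The diet effect on Nr3c2 was compared between F(OVX) and F directly. On probe 2 the F(OVX) effect was lower than that of intact females by 0.76 (SE 0.35, 95% interval of the contrast -1.48 to -0.04), the only member probe of 11 past the thresholds for this contrast, against 1.74% of all probes. On probe 1 the contrast was -0.55 (-1.19 to 0.09). The call on probe 2 was lost with 9 of 16 arrays left out in turn, F + LFD replicates 3 and 4, F + HFD replicates 2 and 3, F(OVX) + LFD replicates 1, 2 and 3 and F(OVX) + HFD replicates 2 and 3, over a range from -0.94 to -0.51. Over the 24 arrays the probes of Nr3c2 correlated at r = 0.67, given as a description.

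In males Nr3c2 probe 1 varied more among the LFD arrays (SD 0.65) than among the HFD arrays (0.15). Probe 2 varied less among the LFD arrays (0.24) than among the HFD arrays (0.40). Probe 1 read 8.10, 8.79, 7.25 and 7.73 in M + LFD and 8.42, 8.36, 8.24 and 8.09 in M + HFD, and the higher LFD values were those of the arrays with low Hoxb13. The difference was 0.31 (-0.37 to 0.99) on all 8 arrays. Without M + LFD replicates 1 and 2 it was 0.79, past the thresholds. The average diet effect over the 3 groups was then 0.40 (unadjusted p = 0.000353 in limma), against 0.24 with them (unadjusted p = 0.0738 in limma). Both averages were under the fold threshold. Without these arrays the male value rests on 2 LFD arrays. Probe 2 differed by 0.49 (-0.02 to 1.003) in males, and by 0.63, past the thresholds, without M + HFD replicate 4.

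**Figure D3:**
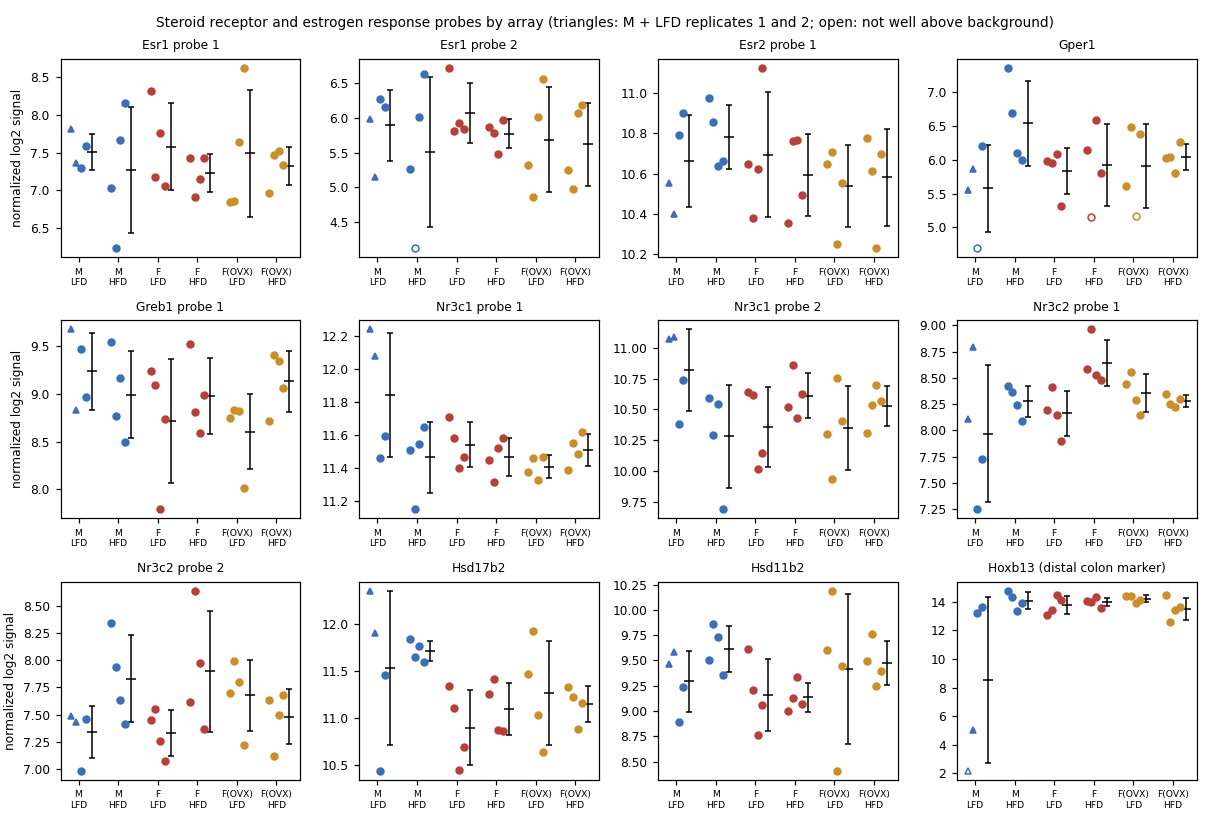
Normalized log2 signal (y axes) of the 11 tested probes and of Hoxb13 by group (x axes), 1 point per array, with mean ± SD (n = 4) at the right of each group. Triangles mark M + LFD replicates 1 and 2, on which Hoxb13 read 2.18 and 5.04, and open points were not well above background.

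Between M and F with both diets together, 1 of the 11 probes was differentially expressed, against 5.56% of all 28575 probes (2.75% higher and 2.81% lower in M). It was Hsd17b2, which inactivates estradiol and testosterone. Hsd17b2 read 12.35, 11.90, 10.44 and 11.45 in M + LFD and 11.34, 11.10, 10.45 and 10.69 in F + LFD. It read 11.84, 11.65, 11.77 and 11.59 in M + HFD and 11.25, 11.41, 10.87 and 10.86 in F + HFD. The LFD groups overlapped, whereas every M + HFD value lay above every F + HFD value (exact permutation p = 0.0286), as 4.64% of all probes tested did in that direction.

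The Hsd17b2 difference with both diets together was 0.63 (SE 0.22, 95% interval 0.16 to 1.09, 1.54-fold, adjusted p = 0.153 in limma, exact permutation p = 0.0180). Leaving out F + LFD replicate 3 (0.56), or either of M + LFD replicates 1 (0.50) and 2 (0.57), ended the call, and without both M + LFD replicates 1 and 2 the difference was 0.39, not past the thresholds. Ovariectomized females read between 10.64 and 11.92 on LFD and between 10.88 and 11.33 on HFD.

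Hsd11b2, the enzyme that inactivates glucocorticoids, differed by less. It read 9.50, 9.86, 9.73 and 9.36 in M + HFD and 9.004, 9.13, 9.34 and 9.07 in F + HFD. These did not overlap (exact permutation p = 0.0286), as 4.64% of all probes tested did not in that direction. On LFD it read 9.47, 9.58, 8.89 and 9.24 in M and 9.62, 9.21, 8.77 and 9.06 in F, which overlapped. The difference with both diets together was 0.30 (0.01 to 0.60, adjusted p = 0.264 in limma, exact permutation p = 0.0482), below the fold threshold. Without M + LFD replicates 1 and 2 it was 0.25, and limma's unadjusted p was no longer under 0.05.

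The receptors did not differ between M and F at these thresholds. The differences were -0.01 (-0.53 to 0.50) for Esr1 probe 1, 0.08 (-0.18 to 0.34) for Esr2 probe 1, 0.18 (-0.41 to 0.77) for Gper1 and 0.27 (-0.22 to 0.76) for Greb1 probe 1. Esr1 probe 2 differed by -0.22 (-0.84 to 0.39). Nr3c1 probe 1 differed by 0.15 (-0.12 to 0.42) and probe 2 by 0.07 (-0.33 to 0.46). Nr3c2 probe 1 differed by -0.28 (-0.65 to 0.09, unadjusted p = 0.128 in limma). Without M + LFD replicates 1 and 2 it differed by -0.49 (unadjusted p = 0.00214 in limma), under the fold threshold either way. Nr3c2 probe 2 differed by -0.03 (-0.40 to 0.35), and by -0.08 without these arrays.

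Nr3c1, the glucocorticoid receptor, had its highest values on the 2 arrays with low Hoxb13, on both probes. Its relation to Hoxb13 among the remaining 22 arrays was not tested. The highest values of probe 1 were 12.24 and 12.08, those of the 2 M + LFD arrays with low Hoxb13, against 11.15 to 11.71 on the remaining 22. For probe 2 these 2 arrays read 11.07 and 11.09, against 9.69 to 10.86. Hsd17b2, at 12.35 and 11.90, had 1 other array above the lower of its values on these 2. The other tested probes had between 8 and 19 of the 22 arrays above theirs.

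**Figure D4:**
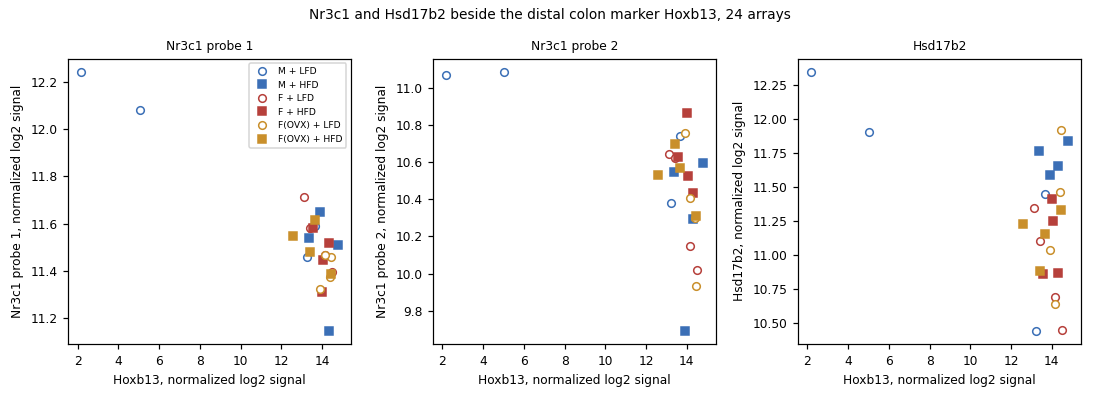
Normalized log2 signal of Nr3c1 probe 1, Nr3c1 probe 2 and Hsd17b2 (y axes) against Hoxb13 (x axes), 1 point per array, open circles for LFD and filled squares for HFD. The 2 M + LFD arrays at Hoxb13 values of 2.18 and 5.04 hold the highest values of both Nr3c1 probes.

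The male diet effect on Nr3c1 depended on these 2 arrays. It was -0.38 (-0.87 to 0.10) on probe 1 and -0.54 (-1.102 to 0.03) on probe 2 with all arrays, and -0.06 and -0.28 without them. Probe 2 passed the thresholds without M + LFD replicate 3 (-0.68) or M + HFD replicate 1 (-0.64). The contrast of the diet effects passed the thresholds on probe 2, at -0.79 for M less F (95% interval -1.43 to -0.16) and -0.71 for M less F(OVX) (-1.35 to -0.08). In each contrast it was 1 of 11 member probes, against 3.22% and 6.02% of all probes. Without M + LFD replicates 1 and 2 these were -0.53 and -0.46, and neither was past the thresholds. The second call was also lost when M + LFD replicate 1 or 2, M + HFD replicate 4, F(OVX) + LFD replicate 2 or F(OVX) + HFD replicate 3 was left out, over a range from -0.86 to -0.52. Nr3c1 probes 1 and 2 correlated at r = 0.48 over 24 arrays, as a description.

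Wider lists were counted beside the members, with each gene represented by its brightest probe. The shares of all probes given above are the background of these counts, 2.24% for F(OVX) against F, 5.56% for M against F, and 4.23%, 1.34% and 2.11% for the diets in M, F and F(OVX). Of 20 tested steroid receptors and their coregulators, 0 were differentially expressed between F(OVX) and F and between M and F, and Gper1 alone in the male diet comparison. Of 23 tested estrogen targets, 0 were differentially expressed between F(OVX) and F, and their median difference was -0.04 against 0.01 over all probes tested. Between M and F, 1 estrogen target was higher in M and 2 were lower. Padi1, a peptidylarginine deiminase, was higher by 0.67, the complement component C3 differed by -1.06 and Susd3 by -0.80. Without M + LFD replicates 1 and 2 none of the 3 passed the thresholds (0.52, -0.69 and -0.69). Singly, M + LFD replicate 1 or F + LFD replicate 3 ended the call of C3, M + LFD replicate 2 or F + LFD replicate 4 that of Padi1, and M + LFD replicates 1 and 3, F + LFD replicates 3 and 4 and F + HFD replicate 3 that of Susd3.

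In F(OVX), 1 of 21 estrogen targets was lower on HFD, the epithelial mucin Muc1, against 2.11% of all probes called. It read 7.17, 7.51, 6.64 and 8.32 in F(OVX) + LFD and 5.68, 6.14, 5.44 and 6.26 in F(OVX) + HFD. The difference was -1.53 (SE 0.35, adjusted p = 1 in limma), and it passed the thresholds with each of the 8 arrays left out in turn, between -1.79 and -1.23. In the same comparison 4 of 7 smooth muscle markers were higher on HFD, with list means from 11.44 to 12.75 on LFD and from 12.71 to 13.99 on HFD. Of the epithelial markers 1 of 8 was higher and 0 were lower. Their list means ran from 13.85 to 14.22 on LFD and from 14.09 to 14.33 on HFD. Of the absorptive colonocyte markers 1 of 7 was higher and 0 were lower. The part of these cell types in the values of Muc1, Cebpd and Fxyd4 was not tested. In intact females Muc1 read between 6.78 and 7.75 on LFD and between 5.08 and 7.62 on HFD.

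Of 22 glucocorticoid targets, 1 was lower in F(OVX) than in F, Klf15, at -0.62 (adjusted p = 0.677 in limma), a call that 9 of 16 arrays ended when left out (F + LFD replicate 3, F + HFD replicates 1, 3 and 4, F(OVX) + LFD replicates 1 and 3, and F(OVX) + HFD replicates 2, 3 and 4). Klf15 was also lower in M than in F, at -0.66 (adjusted p = 0.0845 in limma), and this call was lost without M + LFD replicate 4 or M + HFD replicate 2. The phosphatase Dusp1 was lower in M, at -0.65, lost without M + LFD replicate 3 or M + HFD replicate 2. Tat, a tyrosine aminotransferase, and Errfi1, an inhibitor of EGFR signaling, were higher in M, at 0.90 and 0.62. Neither passed without M + LFD replicates 1 and 2, and single arrays ended the call in 6 of 16 cases for Tat and 11 of 16 for Errfi1. Tsc22d3, which encodes the glucocorticoid-induced leucine zipper, was lower in M by 0.58 on the log2 scale, just below the fold threshold, with an adjusted p of 0.0277 in limma. It read from 10.43 to 11.54 in M and from 10.96 to 11.76 in F.

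Fkbp5, a chaperone of the receptor that glucocorticoids induce, was the 1 of 22 glucocorticoid targets that differed with diet in males. It read 11.60, 11.97, 10.85 and 10.77 in M + LFD and 10.11, 10.18, 10.82 and 10.47 in M + HFD. The difference was -0.90 (SE 0.30, adjusted p = 0.806 in limma). The highest LFD values were those of replicates 1 and 2, and without these it was -0.42, not past the thresholds. In F(OVX), 1 of 22 was lower on HFD, the transcription factor Cebpd, at -0.77 (adjusted p = 1 in limma), and it passed with each array left out.

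Of 15 mineralocorticoid targets tested in males, 2 were higher on HFD and none lower, against 4.23% of all probes called. Scnn1a, a subunit of the epithelial sodium channel, read 10.81, 11.12, 10.86 and 11.62 in M + LFD and 11.60, 11.76, 12.12 and 11.89 in M + HFD, a difference of 0.74. Slc26a3, a chloride and bicarbonate exchanger, read between 9.28 and 9.95 in M + LFD and between 10.11 and 11.41 in M + HFD, a difference of 1.104. Without M + LFD replicates 1 and 2 they were 0.60 and 1.004, and neither passed the thresholds. In intact females, where Nr3c2 probe 1 was separated, 0 of 16 were differentially expressed by diet. In F(OVX), Fxyd4, a regulator of the sodium pump, was lower by 4.58 on the log2 scale on HFD. It read from 9.17 to 13.32 on LFD and from 2.48 to 9.25 on HFD. The value of 2.48 lay below the lowest signal well above background on every F(OVX) + HFD array, 3.77 at the least. Fxyd4 thus met the detection rule through F(OVX) + LFD alone, so its passing the filter is not independent of this difference. The call was lost without F(OVX) + LFD replicate 2 or 4, the arrays of that group with the higher distal Hox means. It was also lost with the methods' t-test, the distal Hox covariate and 1 fit of all 24 arrays.

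Of 23 tested steroid enzymes in males, 1 was higher and 3 were lower on HFD, against 4.23% of all probes called. Akr1c18, which inactivates progesterone, differed by -2.56, Hsd17b14, which oxidizes estradiol, by -1.79, and Hsd3b3, an isomerase of steroid synthesis, by -1.76. Srd5a2, which makes dihydrotestosterone, was higher by 1.03. The first 3 were highest within the males on M + LFD replicates 1 and 2, where Akr1c18 read 10.90 and 9.33 against 6.81 and 6.58 on replicates 3 and 4. None of the 4 passed the thresholds without these 2 arrays, at -0.85, -0.66, -0.69 and 0.64. The calls of Akr1c18 and Hsd3b3 were lost without any of M + LFD replicates 1 and 2 and M + HFD replicates 1, 2 and 4. For the difference of the diet effects of M and F(OVX), 8 of 24 steroid enzymes were called, 1 higher and 7 lower, against 6.02% of all probes. The other lists gave 2 of 20 receptors and coregulators, 2 of 23 estrogen, 1 of 22 glucocorticoid and 2 of 16 mineralocorticoid targets. M + LFD replicates 1 and 2 enter these counts, which were not computed without them.

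Between M and F, Hsd17b2 and Cyp17a1 were the 2 of 24 steroid enzymes that differed, both higher in M. Cyp17a1, which makes androgen precursors, read from 6.88 to 7.93 on the male arrays and from 5.59 to 7.26 on those of intact females. The difference was 0.83 (SE 0.25, adjusted p = 0.102 in limma). It passed with each of 16 arrays left out, between 0.70 and 0.94, and without M + LFD replicates 1 and 2 together (0.62), but not with normexp background correction (0.52). Of 24 enzymes, 0 differed between F(OVX) and F. In intact females Cyp21a1, a 21-hydroxylase, was lower on HFD by 1.34 on the log2 scale, and in F(OVX) Hsd17b13, a lipid droplet protein, was higher by 1.29. Each of these calls was lost with 5 of 8 arrays left out. Aromatase (Cyp19a1), Cyp11b1 and Sult1e1 were well above background on 0 arrays.

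The genes whose values followed each member most closely over the 24 arrays were listed by Pearson's r among 11882 genes well above background on every array, as a description. Nr3c1 was followed most closely by Sox6 (r = 0.89), Gm7694 (0.88) and Wdfy1 (0.88), and Hsd17b2 by Pm20d1 (0.88), Dhrs11 (0.87) and Lrrc42 (0.85). For Hsd11b2 they were Acad11 (0.81), Cyp4f13 (0.80) and Vps13d (0.79), and for Esr2 Heatr3 (0.83), E030030I06Rik (0.83) and Zfp27 (0.82). Greb1 was nearest to Foxd2 (0.82), Igf2bp2 (0.76) and Spdef (0.76), Esr1 to Capza2 (0.76), Dipk1a (0.75) and Vldlr (0.74), and Nr3c2 to Ankrd40 (0.74), 4930524C18Rik (0.72) and Ubl7 (0.70). The arrays share tissue position and signal level, which enter every such r.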

How the data were processed

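Intensities of the deposited files were read for 24 1-color arrays. The authors extracted them with Agilent Feature Extraction 11.0.1.1, which had subtracted the background and removed spatial trends within each array, on a linear scale with no normalization between arrays. The deposited flags for spots well above background, saturated or outlying are 0 or 1. Control spots were left out. Quantile normalization was applied to log2 of the processed signal over the 24 arrays, and spots of a probe were averaged. Symbols came from matching accessions to a RefSeq table of GRCm38.p6 (58.3% of 56605 probes). Linear models were fitted in limma 3.58.1 (R 4.3.3) with moderated variances, with each diet comparison on its own 8 arrays, each comparison of sex or surgery on 16 with diet as a covariate, and averages or differences of diet effects in 1 fit of 24. Exact permutation tests were two-sided, over 70 assignments within 4 against 4 (smallest p 0.0286) or within strata. List genes are named where they were called and were among the 4 with the largest change of their list in a comparison. Those called only in the differences of diet effects are not named. Tsc22d3, which was not called, is named for its adjusted p, and its value was not computed with arrays left out. Cyp19a1, Cyp11b1 and Sult1e1 are named as not detected. Members, lists and tests were chosen with earlier results of these data known. The fits were tested on simulated data. Replicate numbers, the slide columns, paired the F arrays (r = 0.29, 0.42, 0.58 and 0.26 between same-numbered deviations), where pairing required every r to be over 0.1. In F(OVX), r was 0.33, -0.07, 0.32 and 0.25, and in M 0.01, -0.26, 0.00 and -0.02, which fell short of it. The alternatives tried were 75th percentile scaling, normexp background correction, other filters, the methods' t-test, the replicate block, the brightest probe, a distal Hox covariate and arrays left out. Precision is limited by the number of arrays.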

Additional observations from a re-analysis of the deposited data

Results flagged for a closer look

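Among the 66 group and probe combinations of the members, 3 held an array far from the other 3, where chance gives about 1 in 20. Esr1 probe 2 read 6.72 on F + LFD replicate 1, the highest of its group. Greb1 probe 1 read 8.01 on F(OVX) + LFD replicate 4, the lowest of its group. Nr3c2 probe 2 read 6.98 on M + LFD replicate 3, also the lowest.

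The diet effects differed between groups, at an unadjusted p under 0.05 in limma, in 4 cases. Nr3c1 probe 2 differed by -0.79 between M and F and by -0.71 between M and F(OVX), and Nr3c1 probe 1 by -0.48 between M and F(OVX) (adjusted p = 0.663). Nr3c2 probe 2 differed by -0.76 between F(OVX) and F. The Nr3c1 cases hold the 2 arrays with low Hoxb13.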

How the results depend on the processing

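Counts are of member probes past both thresholds. The male diet count of 1 was 0 with normexp, no filter, detection required on all 24 arrays and the methods' t-test, and 2 (Nr3c2 probe 1 and Hsd17b2) without M + LFD replicates 1 and 2. With the distal Hox covariate the male count stayed at 1 but was Hsd11b2 (0.61) and not Gper1. The F(OVX) diet count of 0 was 1 (Gper1) with the distal Hox covariate. The M against F count of 1 was 0 with normexp, the Hox covariate and without M + LFD replicates 1 and 2. The difference of the diet effects of M and F, 1, was 2 with no filter and 0 without those arrays, with the Hox covariate and with the brightest probe. That of F(OVX) and F, 1, was 0 with 75th percentile scaling, normexp, the Hox covariate and the brightest probe. That of M and F(OVX), 1, was 3 with the replicate block, 2 without M + LFD replicates 1 and 2 and 0 with the Hox covariate and the brightest probe. The counts for intact females, for the 3 groups averaged and for F(OVX) against F were 0 under every alternative that kept all arrays.

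With 1 array left out in turn, the counts ranged from 0 to 2 in M, 0 to 1 in F, 0 to 1 in F(OVX), 0 to 0 for the 3 groups averaged, 0 to 0 for F(OVX) against F and 0 to 1 for M against F. They ranged from 1 to 2, 0 to 1 and 0 to 2 for the differences M and F, F(OVX) and F, and M and F(OVX). Of 2627 values of single genes under the alternatives, 142 had another sign than as reported. Of these, 1 had been called, Akr1c18 in males (-2.56, and 0.19 with the distal Hox covariate), the others were at most 0.38 in size, and 0 were called after the change. Calls of the difference M and F(OVX) were gained on Nr3c2 probe 1 (0.66 without M + LFD replicate 2), Nr3c1 probe 1 (-0.61 without M + LFD replicate 3), Greb1 probe 1 (-0.96 without M + HFD replicate 1), Nr3c2 probe 2 (0.84 without F(OVX) + LFD replicate 4 and 0.83 when M + HFD replicate 4 was left out) and Gper1 (1.08 without F(OVX) + LFD replicate 3), and of the difference M and F on Gper1 (1.09 without F + HFD replicate 3).

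Pairing by replicate number was applied as a replicate block. In F, where the numbers pair the arrays, the count of member probes stayed at 0 and that of all probes was 827 against 378. In M and F(OVX), where not every pair correlated, the block left the diet counts of member probes at 1 and 0. Over all probes, counts also moved by over 1.5 times with normexp (M 688 from 1104, F 94, F(OVX) 312 from 516, the 3 groups averaged 58 from 204, F(OVX) against F 150 from 633, M against F 542 from 1589), with the methods' t-test (M 600, F 177, F(OVX) 251) and with no filter (F 786, F(OVX) 1051, M against F 2892, F(OVX) against F 1373, the 3 groups averaged 584). With detection on all 24 arrays they were 171 in F, 70 for the 3 groups averaged, 194 for F(OVX) against F and 803 for M against F, and with the Hox covariate 359 in M, 625 in F and 1026 in F(OVX). With 1 array left out, counts over all probes for the differences M and F, F(OVX) and F, and M and F(OVX) ranged from 549 to 1700, 259 to 820 and 1133 to 2375. Arrays moving these by over 1.5 times were, in that order, M + LFD 4, F + LFD 2 and 4 and F + HFD 2 and 3, then F + LFD 2, F + HFD 2, 3 and 4 and F(OVX) + LFD 1, 3 and 4, then F(OVX) + HFD 2, by replicate number. The averaged count was 328 without M + LFD replicates 1 and 2, and in 1 fit of all 24 arrays that of F(OVX) was 334. For the differences of diet effects, the count of M and F (921) was 593 with normexp, 1414 with no filter, 1584 with the block and 519 with the Hox covariate. That of F(OVX) and F (497) was 198, 1104, 794 and 816 in the same order and 285 with detection on all arrays, and that of M and F(OVX) (1722) was 816 with the Hox covariate. The methods' t-test was not run for averages and differences of diet effects. The cause of these changes was not tested. Precision is limited by 4 arrays per group, by 1 slide per sex or surgery, and for Gper1 by signal near background.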
